A study of Arabidopsis thaliana with 24 samples.

Results

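AT1G24040 encodes an enzyme of the GNAT family of acetyltransferases in Arabidopsis thaliana, and its probe was brighter in the sut2 mutant than in wild type. The gene was taken as the 1 probe whose annotation names AT1G24040 and no other gene, among 691 genes named by the 692 probes annotated with exactly 1 gene, of 3439 probes in all. It was chosen because earlier results on these same columns placed it among the larger rises in the mutant. Its levels and its difference between the groups are therefore given as a description, with no test.

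The array series compared total RNA of wild type plants with that of the sut2 mutant, both of the ecotype Wassilevskija. SUT2 belongs to the sucrose transporter family and has been discussed as a sensor of sucrose at the plasma membrane; the labels describe the mutant as lacking it. Each group held 12 columns, numbered 1 to 12. The sources used here do not give the allele, tissue, age, growth conditions or dye, nor say that columns are separate plants. Any p-value thus reflects the spread among columns alone, and that spread may be technical.

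GNAT enzymes move the acetyl group of acetyl-CoA onto an amino group of a substrate, which can be the first residue of a protein, a lysine side chain or a small molecule. A set of them in Arabidopsis, to which AT1G24040 (also called GNAT5) and AT2G39000 (GNAT4) belong, resides in plastids and is known for acting on both protein N-termini and lysines. Acetylation of plastid proteins by another member of this set, NSI, is needed for state transitions, the movement of light-harvesting antenna between the photosystems.

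Between 4.25% and 7.94% of the values in a column were 0, and 20 of the 24 columns held a value at a shared ceiling of 100. No value of AT1G24040 was at 0 or at the ceiling. The median intensity of a column, over all probes, was 0.372 ± 0.032 (SD) for the wild type columns and 0.256 ± 0.020 for those of the mutant. The mutant columns thus had lower medians before the normalization used here. Column means lay between 0.959 and 1.05 in all 24 columns, so the gap in medians was not matched by one of like size in means. No probe with a single gene name was annotated as SUT2. Among such probes, none of the 5 lists of leaf, root, flower, seed and vascular markers had a member. The labels and the tissue composition could not be checked from single-gene probes for that reason. Probes with several gene names were not searched.

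On the deposited linear scale the wild type columns of AT1G24040 ranged from 1.04 to 3.01 with a median of 1.94, and the mutant columns from 3.65 to 6.80 with a median of 5.33. The ranges did not overlap: the dimmest mutant column was 0.642 intensity units above the brightest wild type column. The wild type mean was 1.95 ± 0.708 and the mutant mean 5.24 ± 1.05 (SD over 12 columns). Set against the median of all probes in the same column, the wild type values were 2.67 to 8.90 times that median and the mutant values 14.2 to 29.4 times. Part of this gap comes from the lower column medians of the mutant.

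By number, the wild type intensities of columns 1 and 2 were 1.77 and 1.49, and those of the mutant 3.65 and 4.07. Columns 3 and 4 read 1.14 and 1.04 in wild type and 3.98 and 4.27 in the mutant. The 4 lowest mutant values thus lay in numbers 1 to 4. Columns 5 and 6 held the highest wild type values, 3.01 and 2.82, together with the highest mutant values, 6.80 and 6.21. Wild type columns 7 and 8 gave 1.05 and 1.56, near the bottom of their group for number 7, while the mutant columns gave 4.95 and 5.20. For numbers 9 and 10 the wild type values were 2.16 and 2.10 and the mutant values 6.19 and 6.20. Numbers 11 and 12 showed 2.45 and 2.74 in wild type and 5.86 and 5.45 in the mutant. The mutant value exceeded the wild type value of the same number in all 12 numbers, by a ratio of 1.99 (number 12) to 4.71 (number 7), with a median ratio of 2.80.

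**Figure D1:**
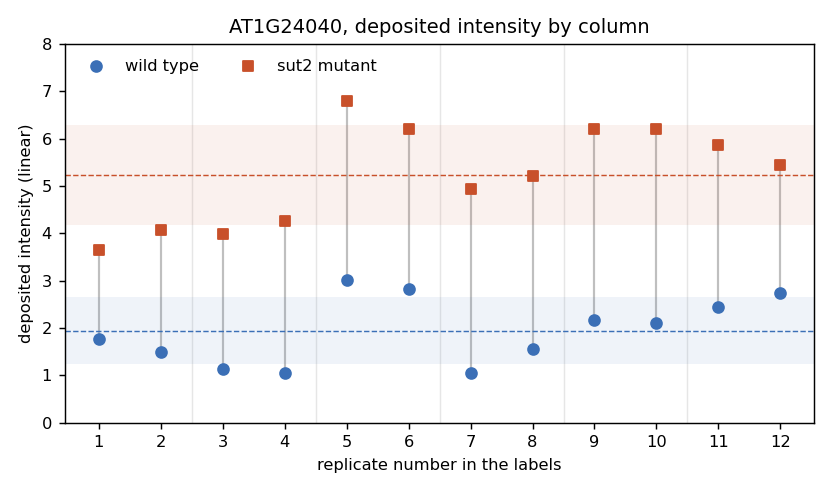
Deposited intensity (linear axis) of AT1G24040 in each of the 12 wild type columns (circles) and 12 mutant columns (squares) against the replicate number, with a grey line joining columns of the same number. Dashed lines are group means and shaded bands 1 SD to either side; every mutant column, from 3.65 to 6.80, lies above every wild type column, from 1.04 to 3.01.

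The probe was among the brighter ones of the 692 in both groups. A rank here orders probe brightness and not transcript amount, since probes differ in labelling and binding. In wild type its rank, counted from the brightest, ranged from 29 in number 5 to 122 in number 7, with a median of 50. In the mutant it ranged from 14, in numbers 5 and 6, to 30 in number 1, with a median of 21. The brightest wild type column therefore reached a rank just inside the mutant range and the others lay outside it. By the group mean of the normalized log2 values the probe stood at rank 49 in wild type (percentile 93.0) and at rank 22 in the mutant (percentile 96.9).

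**Figure D2:**
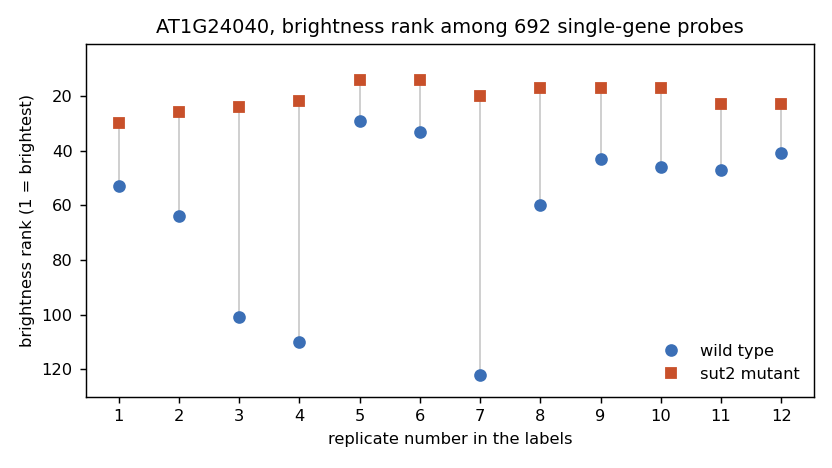
Brightness rank of AT1G24040 among the 692 single-gene probes (axis inverted, 1 is the brightest) in wild type (circles) and mutant (squares) by replicate number. The mutant ranks keep between 14 and 30, while the wild type ranks spread from 29 to 122, with the dimmest ranks in numbers 3, 4 and 7.

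Neighbours in brightness showed how far ranks moved for other genes. In wild type, AT4G25290 (0.88 ± 0.34, mean log2 intensity ± SD, n = 12 columns) and AT3G61870 (0.84 ± 0.41) stood just above AT1G24040 (0.84 ± 0.63), and AT1G64430 (0.79 ± 0.70) and AT4G31470 (0.77 ± 0.42) just below. These 5 levels differed by less than their spread. In the mutant AT4G25290, AT3G61870 and AT4G31470 held ranks 50, 43 and 61, and their differences of 0.10, 0.29 and -0.01 log2 units did not pass (limma adjusted p = 0.64, 0.11 and 0.97). AT1G64430 moved to rank 199, with a log2 difference of -1.82 (limma adjusted p = 0.00017). In the mutant the neighbours of AT1G24040 (2.28 ± 0.26) were AT1G49850 (2.39 ± 0.45) and AT1G13990 (2.33 ± 0.35) above and AT3G26630 (2.07 ± 0.22) and AT5G46560 (1.96 ± 0.29) below. These held ranks 12, 26, 27 and 24 in wild type, and only AT1G13990 of the 4 passed the threshold, with a rise of 0.38 (limma adjusted p = 0.033). Of all probes 34.8% passed in either direction, so 1 of 4 is near the background.

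After quantile normalization AT1G24040 was 1.44 ± 0.20 log2 units higher in the mutant (difference ± SE), or 2.71-fold. Normalized log2 values of wild type ranged from -0.17 to 1.77 and those of the mutant from 1.82 to 2.62, so the groups still did not overlap. As background, 18.8% of all probes were called higher in the mutant at a limma adjusted p under 0.05, 7.07% were higher in the mutant in all 12 numbers, and 0.785% had groups that did not overlap with the mutant higher. AT1G24040 was higher in all 12 numbers and its groups did not overlap, but the gene was chosen on this contrast and nothing is read from these shares. Among the 692 single-gene probes its difference ranked 14th from the highest. The 33 single-gene probes brighter than it over all columns had log2 differences from -1.23 to 0.52, with a median of 0.04. That set was formed after the values were seen and is a description.

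**Figure D3:**
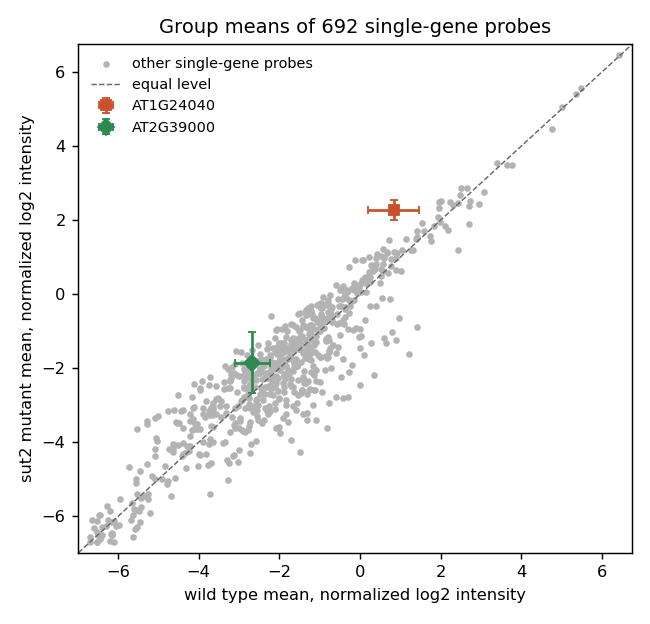
Mean normalized log2 intensity in the mutant against that in wild type for the 692 single-gene probes, with the dashed line marking equal levels; bars on AT1G24040 (square) and AT2G39000 (diamond) are 1 SD over 12 columns. AT1G24040 lies at 0.84 in wild type and 2.28 in the mutant, while brighter probes differ by no more than 0.52 upward.

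The scaling between columns moved the size but not the direction. The difference was 1.49 without normalization, 1.39 under cyclic loess and 2.04 (4.10-fold) when columns were centred on their medians, and in each case the mutant was higher in 12 of 12 numbers with no overlap. Over all probes the median change was itself 0.10 under quantile normalization, -0.24 on unnormalized values and 0.31 under median centring. The split of calls over all probes, 648 higher and 548 lower in the main setting, was 173 and 1016 without normalization and 1053 and 506 with median centring. Relative to the median change of all probes, AT1G24040 was 1.34 higher after quantile normalization, 1.33 after cyclic loess and 1.73 under both other scalings.

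**Figure D4:**
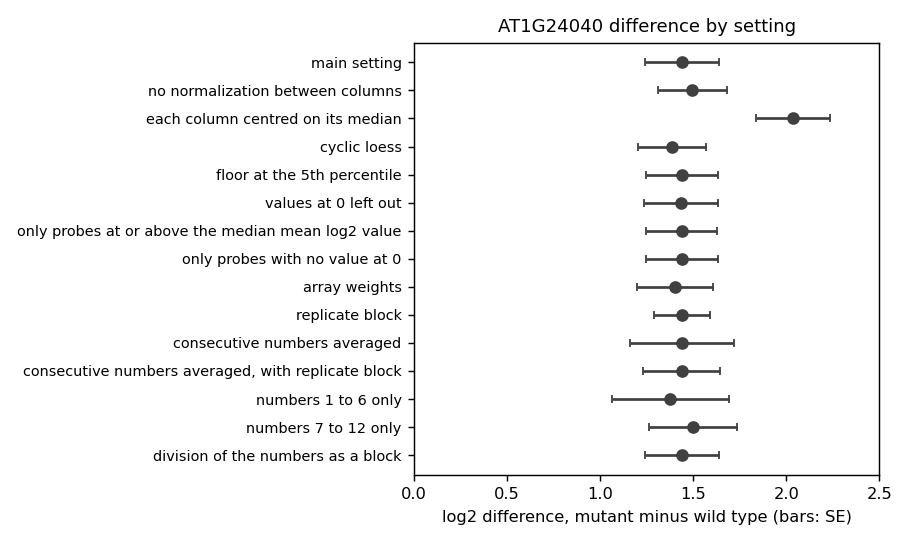
Log2 difference of AT1G24040, mutant minus wild type, under the main setting and each alternative that keeps both groups whole or takes numbers 1 to 6 or 7 to 12 alone; bars are the SE of the fit. Points lie between 1.38 (numbers 1 to 6) and 1.5 (numbers 7 to 12) except with median centring, at 2.04.

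On the log2 scale the wild type columns varied more than those of the mutant. The SD of the quantile-normalized log2 values was 0.63 among wild type columns and 0.26 among mutant columns, a ratio of 2.44. It was 0.56 against 0.30 without normalization, 0.60 against 0.34 with median centring and 0.56 against 0.27 with cyclic loess. On the deposited linear scale the mutant SD was the larger, 1.05 against 0.708 in wild type. Of the 492 single-gene probes with no value at 0, 24, AT1G24040 included, had a ratio of 2.44 or more after quantile normalization. The median ratio was 1.02. Most of this spread lay between sets of consecutive numbers (1 and 2, 3 and 4 and so on), with an SD of set means of 0.63 in wild type and 0.26 in the mutant, against an SD within sets of 0.25 and 0.08. For AT2G39000 the order was the reverse, with an SD within sets of 0.52 in wild type and 0.83 in the mutant. Its SD of set means was 0.22 and 0.57. The labels do not say whether the columns of a set are separate samples, and this was not tested. Set means of AT1G24040 in wild type ran from 0.02 for numbers 3 and 4 and 0.22 for 7 and 8 to 1.66 for 5 and 6. In the mutant they ran from 1.89 for numbers 1 and 2 to 2.57 for 5 and 6. The differences between the groups were 2.05 and 2.03 in the sets 3 and 4 and 7 and 8, where wild type was lowest, and 0.91 in the set 5 and 6, where it was highest. The other sets gave 1.17 for numbers 1 and 2, 1.41 for 9 and 10 and 1.06 for 11 and 12. A low wild type value enters its own difference, so this order is partly built in.

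Earlier results divided the columns of these groups between numbers 1 to 6 and 7 to 12, a division that no label gives. For AT1G24040 the difference over numbers 1 to 6 was 1.38 ± 0.56, and over numbers 7 to 12 it was 1.5 ± 0.50 (mean ± SD over 6 numbers each). The change from one division to the other was 0.12 log2 units, with a 95% interval from -0.71 to 0.96 (limma interaction term, adjusted p = 0.91), and from -1.17 to 1.42 with consecutive numbers averaged (limma adjusted p = 0.97). Of all probes 0.145% passed that test. Within wild type the level was 0.07 ± 0.28 higher in numbers 7 to 12 (difference ± SE, limma adjusted p = 0.87), where 29.4% of probes differed. Within the mutant it was 0.19 ± 0.28 higher (limma adjusted p = 0.72), where 8.84% of probes differed. Neither these differences nor the interaction passed. The interval from 24 columns leaves room for a change between the divisions of up to nearly 1 log2 unit. With consecutive numbers averaged, the interval leaves room for a change of up to 1.42.

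List members were looked up among the 692 single-gene probes only, and the 870 probes with several genes were not searched. Of 9 lists of related genes, only the plastid GNAT enzymes had members among them, 2 of 8, which were AT1G24040 and AT2G39000. The lists of other GNAT enzymes, cytosolic N-terminal acetyltransferases, plastid N-terminal processing, organelle deacetylases, plastid acetyl-CoA supply and use, thylakoid phosphorylation, melatonin synthesis and sucrose transporters had none. AT2G39000 was much dimmer than AT1G24040 as read by its own probe, with deposited intensities from 0.113 to 0.298 (median 0.203) in wild type and from 0.136 to 1.48 (median 0.199) in the mutant. The groups overlapped almost wholly, except for mutant number 3 at 1.48; the next mutant value was 0.242. On the deposited scale the mutant was higher in 6 of 12 numbers and lower in 6, with a median ratio of 1.02.

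Quantile normalization, in which the lower median of the mutant columns is evened out, placed AT2G39000 higher in the mutant in 12 of 12 numbers. Its log2 difference was 0.82 ± 0.26 (SE, limma adjusted p = 0.018), a rise of 1.77-fold, against the same background of 34.8% of probes called. Without normalization the difference was 0.28 and did not pass (limma adjusted p = 0.47), and with consecutive numbers averaged its adjusted p from limma was 0.051, or 0.047 with the averaged sets also paired by number. Numbers 1 to 6 alone gave 1.23 (limma adjusted p = 0.082) and numbers 7 to 12 alone 0.42 (limma adjusted p = 0.15). Without mutant number 3 it was 0.60 ± 0.16 (limma adjusted p = 0.0060). The call was kept with median centring (0.82, limma adjusted p = 0.015) and with cyclic loess (0.83, limma adjusted p = 0.018), each with the mutant higher in 12 of 12 numbers. Of the 4 scalings, the unnormalized values alone did not give it. The scalings that gave the call all align the columns, so they are not independent checks of each other. Relative to the median change of all probes, AT2G39000 was 0.72 higher after quantile normalization, 0.78 after cyclic loess and 0.52 under both other scalings. Its deviations from the group means correlated with those of AT1G24040 by r = -0.17 over 24 columns, a description of columns that share arrays or extracts to an unknown degree.

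**Figure D5:**
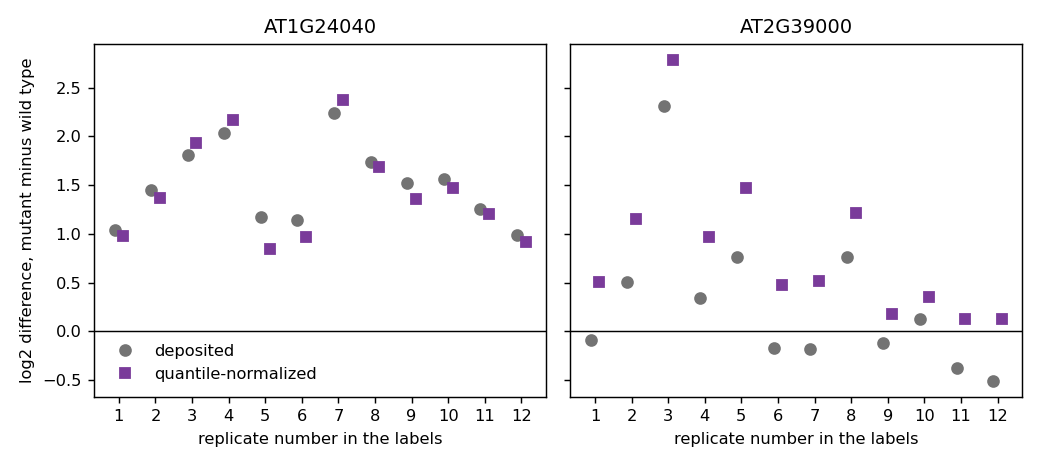
Log2 difference, mutant minus wild type, by replicate number for AT1G24040 (left) and AT2G39000 (right), from the deposited intensities (circles) and after quantile normalization (squares). AT1G24040 is above 0 in all 12 numbers on both scales, whereas AT2G39000 is above 0 in 6 numbers as deposited and in 12 after normalization.

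The probes most like AT1G24040 were sought by the Pearson correlation of deviations from the group means over 24 columns, which leaves out the difference between the groups. Among 491 other single-gene probes with no value at 0 the correlation ran from -0.67 to 0.65 with a median of 0.02. The 5 highest were AT5G19210, a DEAD-box RNA helicase (r = 0.65), AT2G22890 (0.65), AT1G21730, a kinesin motor protein (0.59), AT4G35660 (0.58) and AT5G64150 (0.58). Within wild type AT5G19210 followed AT1G24040 with r = 0.75 and within the mutant with r = 0.11, while AT2G22890 gave 0.60 and 0.86 (12 columns each). The 5 probes were mixed in their difference between the groups. AT5G19210, the most similar, rose by 1.62 ± 0.20 log2 units (SE, limma adjusted p = 1.63e-06) and AT4G35660 fell by 2.29 ± 0.41 (limma adjusted p = 0.00017). AT2G22890, AT1G21730 and AT5G64150 had differences of 0.50, 0.40 and -0.83 and did not pass (limma adjusted p = 0.28, 0.28 and 0.42). Of all probes 34.8% passed in either direction, so the calls of AT5G19210 and AT4G35660 among 5 probes are near the background. The order was unsteady: 3 of the 5 remained among the highest 5 without normalization, with consecutive numbers averaged or within the divisions, and 1 of 5 with Spearman's rank correlation.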

How the data were processed

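The values are array intensities on a linear scale, as deposited by the authors; the sources used here do not give their image analysis, background correction or scaling. Column means lay between 0.959 and 1.05 and none was below 0. No measure of background was used. Columns were grouped and numbered from their titles.

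A floor was set at the 1st percentile of the positive values (0.00971), and log2 values were quantile-normalized between columns. All 3439 probes were fitted with limma 3.58.1 in R 4.3.3 (lmFit, eBayes, group as the only term, two-sided) and p-values adjusted over all of them by Benjamini-Hochberg, with a threshold of 0.05. The fits were tested on simulated data with independent columns, which do not cover the resemblance of consecutive columns. A platform annotation that can be old named the probes: 692 had 1 gene, 870 several and 1877 none. Gene numbers matched a TAIR10.1 table for 690 of the 692. No coordinates are given, as no build is named for the probes, and the number of arrays limits the precision.

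The gene, lists and tests were chosen with earlier results of these data known. Named genes were AT1G24040, the measured list members, the 5 probes most like it and the 2 next above and below it in brightness in each group. Descriptions of genes were not in the annotation used, so no list was built from them. All 12 same-numbered pairs of columns correlated by over 0.1 in their deviations from the group means (0.14 to 0.40). This met the minimum set for treating the numbers as pairs, a reading that comes from the data. Columns of different numbers were not correlated between the groups, so pairing by number is not established. Columns with consecutive numbers correlated by 0.12 to 0.55. Alternatives covered scaling, floor, dim probes, weights, pairing, averaging and columns left out.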

Additional observations from a re-analysis of the deposited data

How the results depend on the processing

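The difference of AT1G24040 kept its direction in all 50 alternatives. The gene was chosen for this difference and its groups do not overlap, so leaving out columns could not turn the sign. The count is a description only. The difference was 2.04 in place of 1.44 with each column centred on its median. That move exceeded the pooled SD within groups, while the other 49 alternatives stayed within it. The difference lay between 1.38 and 1.5 in the other settings that leave out no single column or number. Leaving out 1 column or 1 number gave 1.35 to 1.52. With the replicate number as a block the difference was the same, with an SE of 0.15 in place of 0.20; over all probes 1477 passed in place of 1196, and beyond the averaged value of AT2G39000 (limma adjusted p 0.051, with the block 0.047) the block changed the call of none of the 14 named genes with a test. Over all probes, the count fell to 449 with consecutive numbers averaged, 759 with that average and the replicate block, and 663 in numbers 1 to 6 alone, against 1099 in numbers 7 to 12 alone; the cause was not tested. It was 1054 to 1226 with 1 column or number left out. The interaction with the division of the numbers passed in none of its 47 alternatives (limma adjusted p from 0.77 to 0.99), with a value from -0.084 to 0.290 when 1 column or number was left out; its sign turned without number 7, and without wild type number 5, 6 or 7 alone. The brightness percentile stayed between 90.9 and 93.9 in wild type and between 96.7 and 97.3 in the mutant in 5 alternatives each. Without background values, whether dim probes such as that of AT2G39000 stand above background was not tested; AT2G39000 was dropped by the filter on dim probes.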
